A study of Hydra vulgaris with 99 samples.

Results

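Homeostatic heads of the freshwater polyp Hydra vulgaris were compared with homeostatic feet of the same strain, Jussy, by RNA sequencing. The comparison used 6 of the 99 libraries of the series, chosen by their labels, with 3 biological replicates (A, B and C) for each end. The head was the apical region cut off below the tentacles. The foot was the basal disk with the lower part of the peduncle. The animals were fed and untreated, and each library pooled tissue of 20 to 25 animals, so no value belongs to a single polyp. For reference, 3 libraries of intact animals were used, and 9 libraries of tips sampled at 0 h after section: 3 at the 80% level of the body axis (decapitation) and 3 on each side of a cut at the 50% level. These 9 are called the body column here. A further 6 libraries came from tips regenerating an apical or a basal end from the 50% level for 48 h.

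As background, Hydra has a single oral-aboral axis that is renewed throughout life. Epithelial and interstitial stem cells divide in the body column, and tissue is displaced towards the ends, where cells stop dividing and differentiate. The head carries the mouth cone, which acts as an organizer through Wnt signalling, and the tentacles, whose battery cells hold mature stinging cells. Stinging cells form in clusters in the column and move into the tentacles. The basal disk is made of mucus-secreting epithelial cells that attach the animal.

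The count table held 79774 transcript sequences, which their identifiers place in 25879 loci. Of these, 20883 loci and 54272 sequences had enough reads to be tested. The identifiers carry no gene names, and 0 of them matched the RefSeq gene table used here. Loci are therefore described by their levels and behaviour, and no locus is assigned a function or a cell type. For the same reason the labelled tissues could not be checked against known head and foot marker genes. The 6 libraries held 30714927 to 37382179 reads. Replicates of the head correlated with Pearson r from 0.988 to 0.993 and those of the foot from 0.986 to 0.990, across 14624 loci, which are not independent. In the 0 h tips of the 50% level, replicate A stood apart, with r from 0.963 to 0.972 against the other replicates, which correlated at 0.990 with each other on either side of the cut. Many, though not all, of the counts and contrasts that rest on the 50% level are therefore also given without these 2 libraries.

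Heads and feet differed widely. Of the 20883 loci, 4107 (19.7%) were called: edgeR's quasi-likelihood test gave an adjusted p under 0.05, and the ends differed at least 2-fold. In the head 2158 loci were higher (10.3%), and in the foot 1949 were higher (9.33%). These are called head-side and foot-side loci. With no fold minimum, 3768 loci passed as higher in the head (18%) and 5318 as lower (25.5%). Libraries of the ends did not overlap in 2126 of the 2158 head-side and 1868 of the 1949 foot-side loci, while they did not overlap in 52.1% of all loci tested. In bulk tissue, fewer cells of a type and less RNA per cell cannot be told apart, which holds for every difference given here.

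Fold sizes on the 2 sides were of similar range. The median log2 fold change, head minus foot, was 2.09 over head-side loci and -2.17 over foot-side loci, against -0.10 over all loci tested. A difference of at least 4-fold was reached by 1131 head-side and 1073 foot-side loci, of at least 16-fold by 402 and 341, and of at least 64-fold by 151 and 165. Called loci occurred at every abundance. When the tested loci were divided by mean abundance over all 99 libraries into 5 classes of equal size, the share called ran from 16.6% to 23.0%. In the least abundant class the called loci had a median absolute log2 fold change of 2.94, and in the most abundant class 1.98. At any fold, 19.6% of the least abundant and 66.9% of the most abundant class had an adjusted p under 0.05 by edgeR. Small differences thus seldom passed in the least abundant class, so these medians are not like for like. Foot-side loci outnumbered head-side loci in the most abundant class, with 10.6% against 6.22% of its loci, and in no other class.

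**Figure D1:**
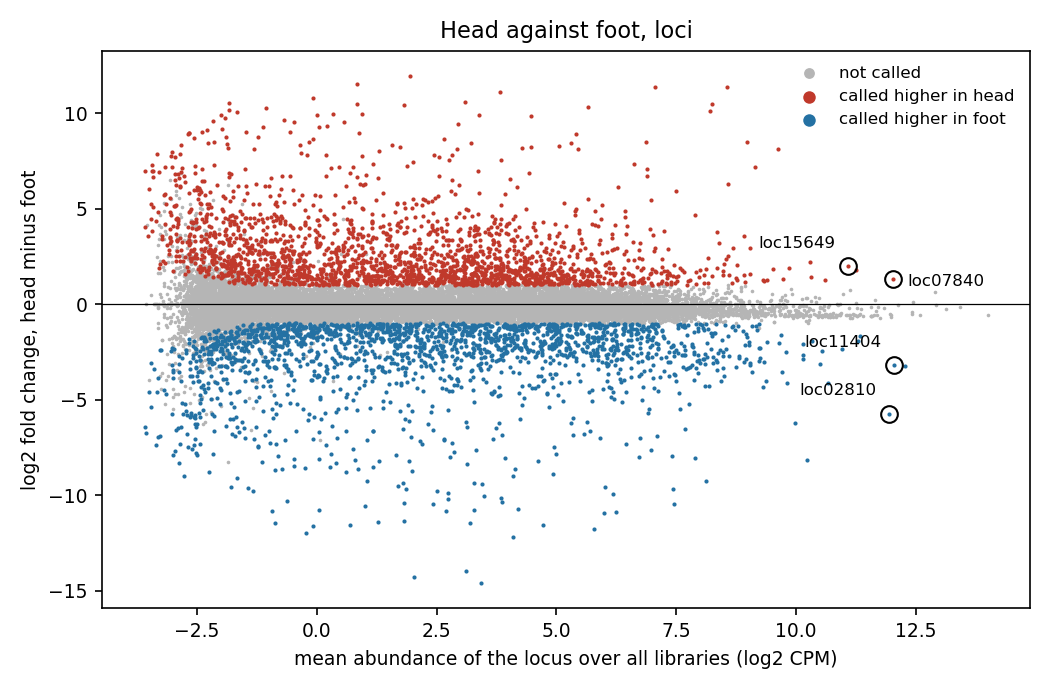
Each point is 1 of the 20883 loci tested. The x axis is the mean abundance over all 99 libraries (log2 CPM) and the y axis the log2 fold change, head minus foot; red and blue points are the 2158 and 1949 loci called higher in head and in foot, and circles mark the 4 named loci. Calls on either side occur in each of the 5 abundance classes.

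Some loci were read at 1 end and close to silent at the other. In 78 loci every head library held at least 30 reads and every foot library at most 3. The reverse held for 62 loci. Among the 78, 26 had 0 reads in the 3 foot libraries together, which allows up to 3 reads. Among the 62, 18 had 0 reads in the heads together. Most were low in abundance where they were read: the median locus stood at 2.33 CPM in the head and 5.23 CPM in the foot, and the highest at 82.6 and 201 CPM. CPM (reads per megaread of the scaled library) is not divided by transcript length, so levels of different loci are compared here as reads and not as molecules. Against a floor of 3 reads per library at the silent end, the median locus was at least 25.4-fold higher in the head or at least 59.5-fold higher in the foot. Of the 78 head loci, 39 were also at or under 3 reads in all 9 column libraries, and 4 were above 3 reads in all 9. Of the 62 foot loci these numbers were 22 and 8. In the 7 column libraries left without the 2 replicate A libraries of the 50% level, they were 42 and 7 for the head and 23 and 8 for the foot.

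Large differences also occurred among abundant loci. A mean abundance of 5 or more on the log2 CPM scale, with no overlap between the ends, was met by 296 head-side and 476 foot-side loci. The 20 of largest fold on the head side had absolute log2 fold changes from 5.49 to 11.40. Their median level was 396 CPM in the head, 1.35 CPM in the foot and 193 CPM in intact animals. In the column their median was 247 CPM at the 80% level, 46.5 CPM just above the cut at the 50% level and 9.95 CPM just below it. The 20 of largest fold on the foot side had absolute log2 fold changes from 6.67 to 11.75, and medians of 759 CPM in the foot, 1.09 CPM in the head and 132 CPM in intact animals. Their column medians were 8.59 CPM at the 80% level, 7.12 CPM just above and 15.7 CPM just below the cut at the 50% level. From replicates B and C alone, the medians above and below the cut were 46.3 and 10.1 CPM for the head-side loci and 7.56 and 20.8 CPM for the foot-side loci. These loci were picked for their fold, so the values describe them and are not tested. Apical and basal tips at 48 h were not contrasted in the fold that picked them, though they shared the fit behind the calls. There, 16 of the 20 head-side loci were called higher in apical tips and 13 of the 20 foot-side loci higher in basal tips. Over all loci tested these shares were 4.21% and 3.75%. The abundance limit was a mean over all 99 libraries, these tips included, and so favoured loci with enough reads to be called.

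Together, the called loci took a large share of the reads of their own end. Head-side loci held 19.5%, 16.9% and 18.6% of the reads of head replicates A, B and C. In the foot libraries they held 4.37%, 4.10% and 4.17%. Foot-side loci held 15.1%, 15.3% and 13.5% of the reads of foot replicates A, B and C, and 2.32%, 2.90% and 2.30% of those of the heads. Head replicate B was the lowest of the heads in head-side reads and the highest in foot-side reads. These reads were concentrated: 59 to 64 loci held 50% of the head-side reads of a head library, and 44 to 60 loci held 50% of the foot-side reads of a foot library.

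Outside the ends, the 2 sides were read at unlike levels. Head-side loci held 8.18% ± 0.59 of the reads of intact animals (SD, n = 3), 6.96% ± 0.43 at the 80% level, 5.22% ± 0.38 just above the cut at the 50% level and 4.46% ± 0.19 just below it. Foot-side loci held 10.8% ± 0.91 of the reads of intact animals, 10.5% ± 0.78 at the 80% level, 12.7% ± 0.91 just above and 13.0% ± 0.09 just below the cut at the 50% level. From replicates B and C alone, the means above and below the cut were 5.44% and 4.55% for head-side loci and 12.2% and 13.0% for foot-side loci. In either measure the column was closer to the foot than to the head. Both sets were chosen on the head and foot libraries, so these shares are a description.

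**Figure D2:**
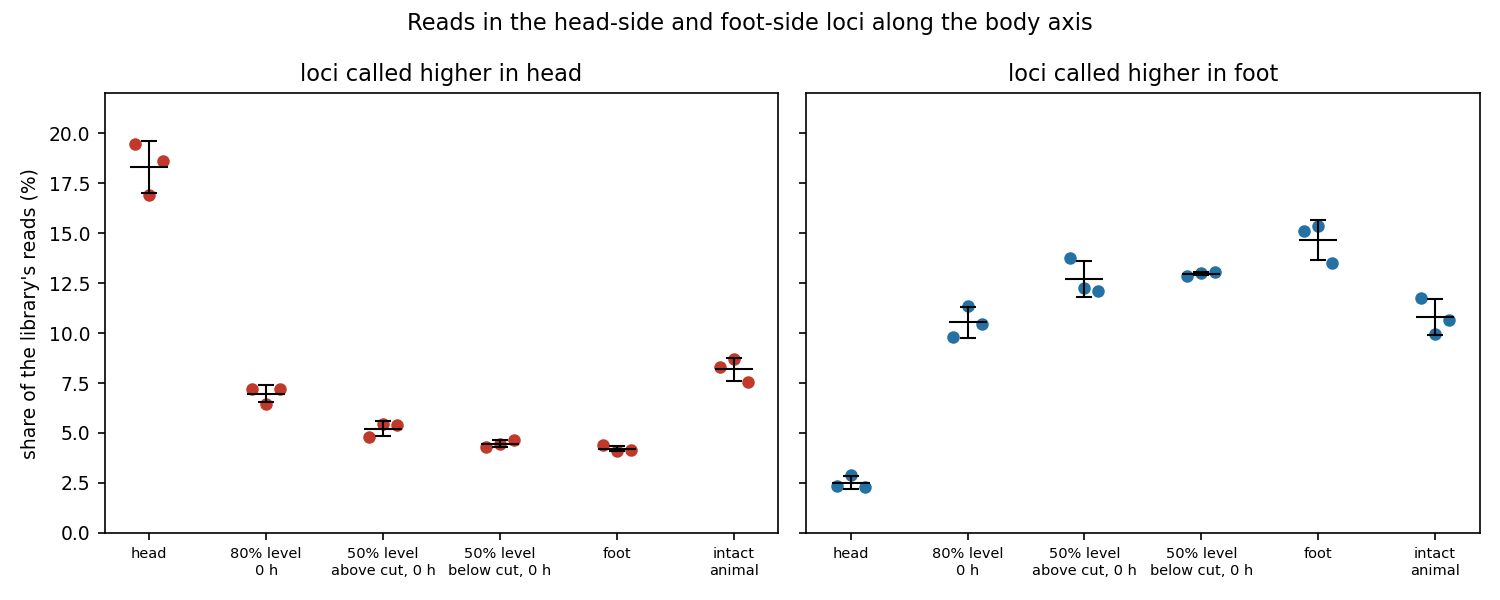
The y axis is the percent of a library's reads in the 2158 head-side loci (left) and the 1949 foot-side loci (right). Points are libraries, and black marks are the mean and SD of 3. Heads reach 19.5% on the left and fall to 2.30% on the right, while column libraries stay nearer to the feet in either panel.

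To place each difference, head and foot were each compared with the mean of the 3 column groups. These comparisons share the column libraries, so their values are set side by side and no overlap between them is read as a result. Head against column called 3584 loci higher in the head (17.2%) and 2376 lower (11.4%). Foot against column called 2197 loci higher in the foot (10.5%) and 894 lower (4.28%). Without the 2 replicate A libraries these counts were 3726 and 2314 for the head and 2370 and 874 for the foot. The head-side and foot-side loci were chosen on the same head and foot libraries, so their division by column level describes them and is not a test.

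In most head-side loci the head stood above the column. In 1556 of the 2158 (72.1%), said here to be placed by the head, the head was called higher than the column and the foot was not called lower. In 221 (10.2%) the foot was called lower than the column and the head was not called higher. In 192 (8.90%) the head was higher and the foot lower, and in 189 (8.76%) neither was called. The 1556 include 199 loci (12.8%) in which the foot was also called higher than the column, so that both ends were raised and the head the more so. Over the 1556 loci the median of log2(CPM + 0.5) was 3.58 ± 0.11 in the head, 1.03 to 1.20 in the means of the 3 column groups and 1.36 ± 0.03 in the foot.

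Foot-side loci were divided the other way. In 626 of the 1949 (32.1%) the foot was called higher than the column and the head was not called lower. In 114 of the 626 (18.2%) the head was also called higher than the column. In 1032 (53.0%) the foot was not called higher than the column, and the head was called lower. In 116 (5.95%) both were called, and in 175 (8.98%) neither. The head was thus the end that differed from the column in the larger number of loci on either side. Without the 2 replicate A libraries of the 50% level at 0 h, the classes in which the head was the end called held 1611 head-side loci (73.0%) and 1025 foot-side loci (51.8%).

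The 1032 loci low in the head were abundant in the column and the foot. Their median abundance over all 99 libraries was 4.03 on the log2 CPM scale. It was 0.29 for the 626 loci placed by the foot and 2.46 for all loci tested. Most of these libraries are tips cut from the body, mostly sampled after 0 h. The 9 column libraries that sorted the classes are among them, so the sorting favours this order. In the foot itself the medians of log2(CPM + 0.5) were 3.84 ± 0.09 for the 1032 and 2.64 ± 0.25 for the 626. The 1032 loci held 9.28% ± 0.66 of the reads at the 80% level, 11.2% ± 1.05 just above and 10.9% ± 0.05 just below the cut at the 50% level. They held 7.14% ± 0.58 in the foot and 1.55% ± 0.39 in the head. Among the heads, replicate B was highest at 2.00%. In 349 of the 1032 (33.8%) every column library lay above every head and foot library, against 10.5% of all loci tested. Without the 2 replicate A libraries this held for 422 (40.9%), against 14.3% of all loci, and the read share just above the cut was 10.6%. The class was sorted on these same libraries in a way that favours this order, so its larger share is a description and no enrichment. By contrast, the 626 loci placed by the foot held 5.28%, 5.16% and 3.35% of the reads of foot replicates A, B and C, and at most 0.514% of the reads of any column library and 0.620% of those of any head.

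**Figure D3:**
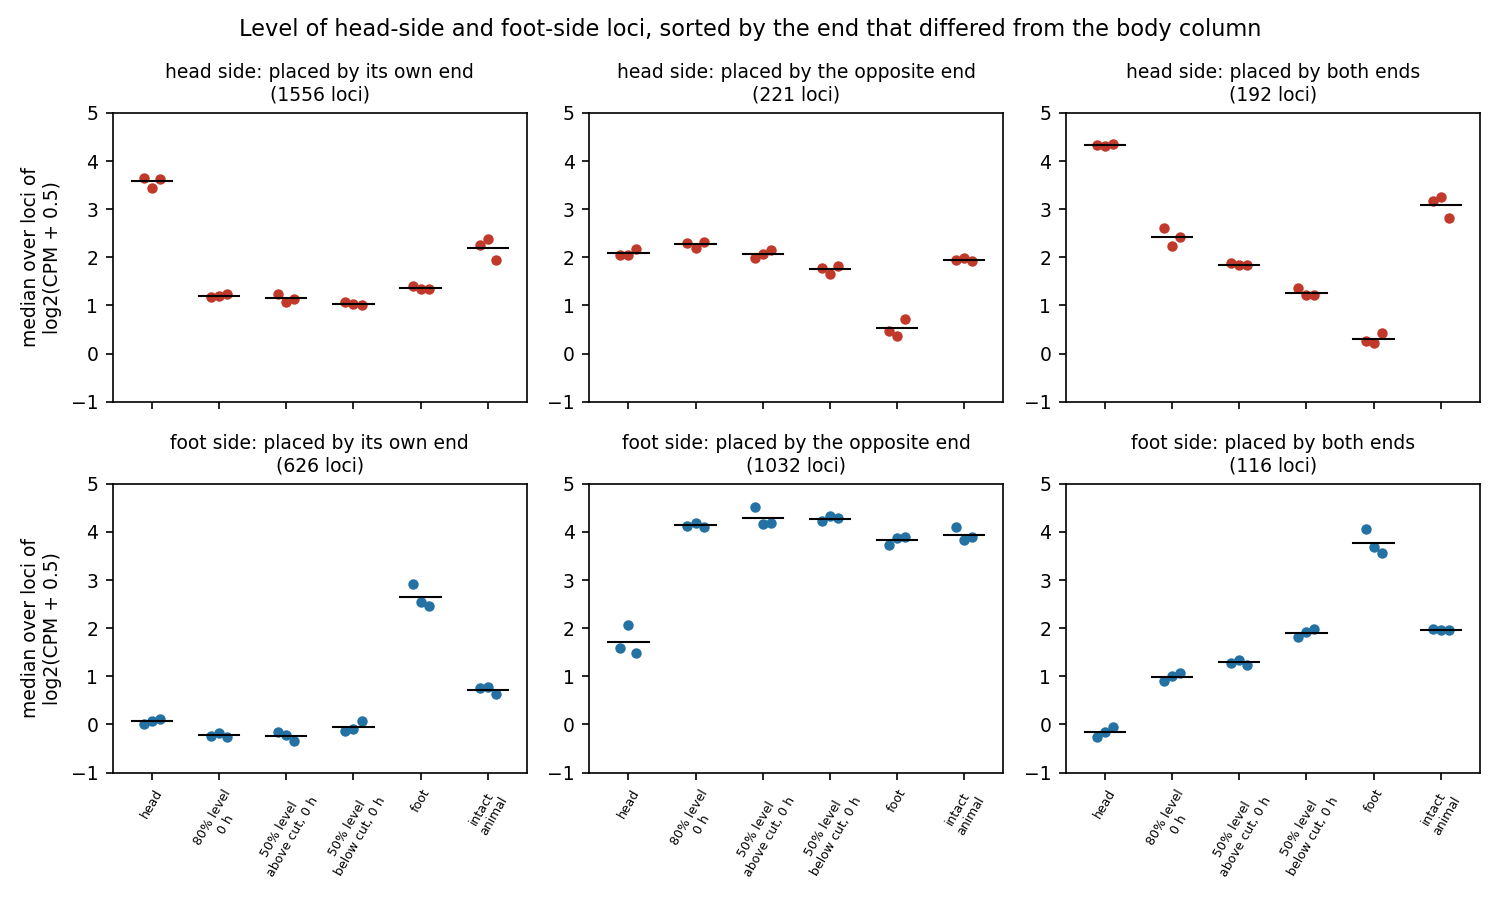
The y axis is the median over the loci of a class of log2(CPM + 0.5). Points are libraries and lines are means of 3, with head, column from top to bottom, foot and intact animals along the x axis. Loci placed by their own end (left) are nearly level through the column, the 1032 foot-side loci low in the head form a plateau, and the 221 head-side loci low in the foot and the loci placed by both ends (right) step through the column.

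Several classes were graded within the column, those in which both ends differed from it most often. Only the mean of the 3 column groups was used to place the loci, so their order within the column was not. For the 192 such head-side loci, the median of log2(CPM + 0.5) was 4.34 ± 0.02 in the head, 2.42 ± 0.19 at the 80% level, 1.85 ± 0.03 just above the cut at the 50% level, 1.27 ± 0.08 just below it and 0.30 ± 0.10 in the foot. No library of one position overlapped with those of the next. Of these loci, 136 (70.8%) had group means that fell from the 80% level through the upper to the lower side of the 50% cut, against 16.2% of all loci tested. The same falling order held for 119 of the 221 head-side loci low in the foot (53.8%), whose medians were 2.27 ± 0.06, 2.06 ± 0.08 and 1.75 ± 0.09 along the column, for 27.3% of the 1556 and for 37.6% of the 189 called at neither end. For the 116 such foot-side loci the medians were -0.15 ± 0.11 in the head, 0.99 ± 0.07, 1.29 ± 0.05 and 1.91 ± 0.08 along the column and 3.77 ± 0.25 in the foot. Of these, 66 (56.9%) had group means that rose towards the foot through the column, against 19.0% of all loci. The rising order held for 28.8% of the 626 loci placed by the foot and 20.2% of the 1032 low in the head. Without the 2 replicate A libraries, where both ends differed, the shares were 74.5% against 18.4% of all loci for the falling order and 58.6% against 17.2% for the rising order. In the 221 loci low in the foot the falling share was then 60.2%. In the 1032 loci low in the head the rising share was then 33.6%, so it moved by over 1.5 times. Over all loci the rising order was the more frequent with these libraries and the falling order without them. These shares were not tested against each other.

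The loci named here are the 2 called on each side with the largest difference in mean CPM between the ends and no overlap of libraries. They are highly read loci and not those of largest fold. The first on the head side, loc07840, stood at 14420, 11418 and 12487 CPM in head replicates A, B and C and at 6055, 4775 and 4657 CPM in those of the foot. Every head was above every foot. The difference, head minus foot, was 1.31 on the log2 scale (SE 0.22, edgeR adjusted p = 6.09e-07). Column groups had means of 2851 to 3754 CPM, so the foot also lay above the column, by 0.72 on the log2 scale (SE 0.17, edgeR adjusted p = 0.000324), which is under the 2-fold minimum. Without the 2 replicate A libraries of the 50% level, in which loc07840 stood at 1856 and 2073 CPM, that difference was 0.58 (SE 0.17, edgeR adjusted p = 0.00352).

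Its 11 sequences did not move together. The most abundant sequence of loc07840 held 86.1% of the locus's reads in the head and 82.9% in the foot, and differed by 1.38 on the log2 scale (edgeR adjusted p = 0.000171). The sequence ranked 3 in the head stood at 268, 201 and 237 CPM in the heads and at 0.765, 0.597 and 1.07 CPM in the feet, a log2 difference of 8.19 (edgeR adjusted p = 2.18e-30). The sequence ranked 5 stood at 63.1, 65.6 and 79.9 CPM in the heads and 80.6, 89.0 and 137 CPM in the feet, and did not pass the test (edgeR adjusted p = 0.691). Sequences of a locus can be alike, and how the authors shared reads among them is not given in the sources used here, so levels of single sequences are less certain than their sum.

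The second head-side locus, loc15649, has a single sequence. It stood at 5443, 4174 and 4785 CPM in the heads and at 1247, 882 and 1514 CPM in the feet, without overlap. The difference was 1.98 on the log2 scale (SE 0.21, edgeR adjusted p = 5.13e-13). The foot was the end called against the column, at -1.03 on the log2 scale (SE 0.18, edgeR adjusted p = 1.13e-06), while the head was 0.95 above the column (SE 0.16, edgeR adjusted p = 2.08e-07), just under the 2-fold minimum. These values were -1.06 and 0.92 without the 2 replicate A libraries.

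On the foot side, loc02810 stood at 12304, 6770 and 7788 CPM in foot replicates A, B and C and at 206, 141 and 161 CPM in the heads. Replicate A of the foot was the highest, and the ends did not overlap. Head minus foot was -5.73 on the log2 scale (SE 0.52, edgeR adjusted p = 1.22e-15). The foot lay above the column by 1.03 on the log2 scale (SE 0.33, edgeR adjusted p = 0.0079), although foot replicate B was lower than all 3 libraries just below the 50% cut. It lay above by 0.96 without the 2 replicate A libraries (SE 0.35, edgeR adjusted p = 0.0207), under the 2-fold minimum, so this call rests on them. Means of this locus rose along the column, from 2349 ± 1201 CPM at the 80% level to 4635 ± 926 CPM just above and 7793 ± 478 CPM just below the cut at the 50% level. The most abundant of its 3 sequences held 99.7% of its reads in the head and 99.97% in the foot. The second, loc11404, has a single sequence and stood at 2610, 3546 and 3221 CPM in the feet and at 246, 554 and 218 CPM in the heads. Head minus foot was -3.20 on the log2 scale (SE 0.28, edgeR adjusted p = 1.02e-16). The head was the lowest of all 33 groups of the series in this locus, and the foot ranked 29 of 33. Foot libraries lay below the column by 0.85 on the log2 scale (SE 0.22, edgeR adjusted p = 0.000795), and by 0.72 without the 2 replicate A libraries (SE 0.22, edgeR adjusted p = 0.00518). This foot-side locus was thus higher in the column than in the foot.

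**Figure D4:**
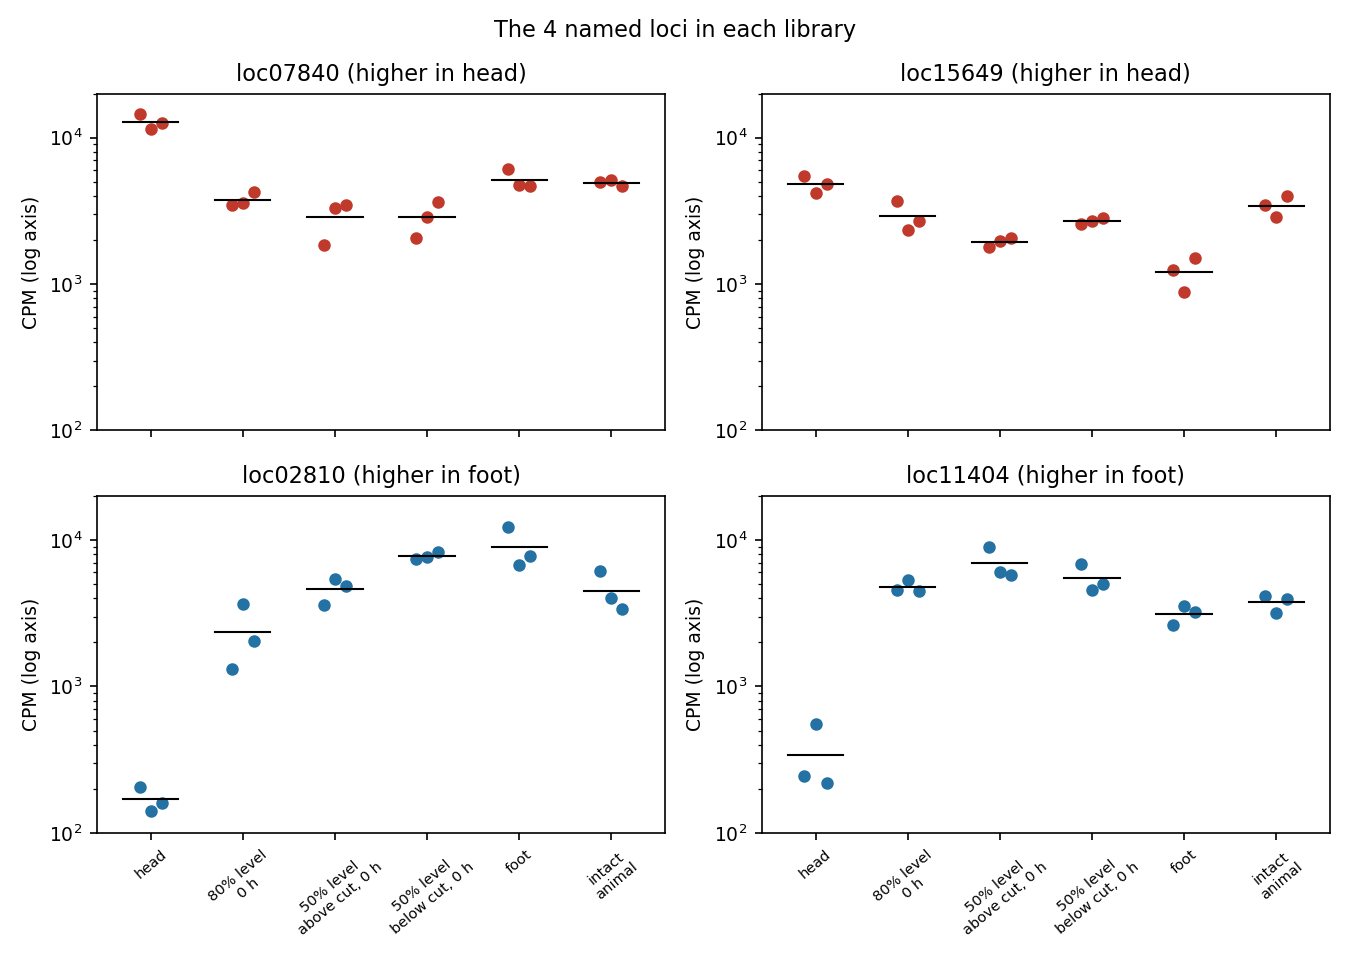
CPM of the 4 named loci on a log axis. Points are libraries and lines are means of 3, from head through the column to foot, with intact animals at the right. loc07840 is higher at both ends than in the column, loc15649 is lowest in the foot, loc02810 rises from head to foot, and loc11404 is low in the head, at 218 to 554 CPM.

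Head and foot were next followed in libraries outside the head-against-foot contrast. All 99 libraries shared a fit, so these tips entered the filter, the scaling and the spread behind the head-side and foot-side calls. Calls in the tips are thus not independent of those calls. Tips regenerating an apical and a basal end from the 50% level were compared at 48 h. In apical tips 880 loci were called higher (4.21%) and in basal tips 783 (3.75%). Of the 880, 740 (84.1%) were head-side and 11 foot-side loci. Of the 783, 539 (68.8%) were foot-side and 21 head-side loci. Seen from the ends, the 740 are 34.3% of the head-side loci and the 539 are 27.7% of the foot-side loci. Among the 16776 loci not called in head against foot, 0.769% were called higher in apical and 1.33% higher in basal tips.

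Loci with a larger difference between head and foot were more often called in tips, although their median abundance was lower on the head side (2.67, 0.97 and -0.34 log2 CPM in the 3 classes given next). Foot-side medians were 2.42, 2.62 and 1.05 log2 CPM, lowest in the uppermost class. On the head side the share was 15.5% (159 of 1027 loci) for absolute log2 fold changes from 1 to 2, 43.2% (315 of 729) from 2 to 4 and 66.2% (266 of 402) from 4 up. On the foot side it was 14.8% (130 of 876), 26.9% (197 of 732) and 62.2% (212 of 341). The median log2 fold change, apical minus basal, was 2.47 over the head-side loci of the uppermost class and -2.92 over the foot-side loci of that class, against 0.01 over all loci tested. Apical tips reached part of the mature read share: head-side loci held 7.07% ± 0.54 of their reads and 4.62% ± 0.08 of those of basal tips, without overlap, where heads held 18.3% ± 1.31. Foot-side loci held 13.8% ± 0.52 of the reads of basal tips and 8.17% ± 0.45 of those of apical tips. At 0 h they already held 12.7% ± 0.91 just above the cut, where tips regenerate a basal end (12.2% from replicates B and C). Just below it, where tips regenerate an apical end, they held 13.0% ± 0.09. The foot-side share thus changed more in apical tips, where it fell. Head-side loci held 5.22% ± 0.38 above and 4.46% ± 0.19 below the cut at 0 h. Among the named loci, loc15649 was higher in apical tips by 1.34 on the log2 scale (SE 0.21, edgeR adjusted p = 2.76e-07), and loc02810 was lower there, at -2.09 (SE 0.44, edgeR adjusted p = 0.000158). The other two did not pass the test, loc07840 at -0.20 (edgeR adjusted p = 0.613) and loc11404 at -0.57 (edgeR adjusted p = 0.113).

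**Figure D5:**
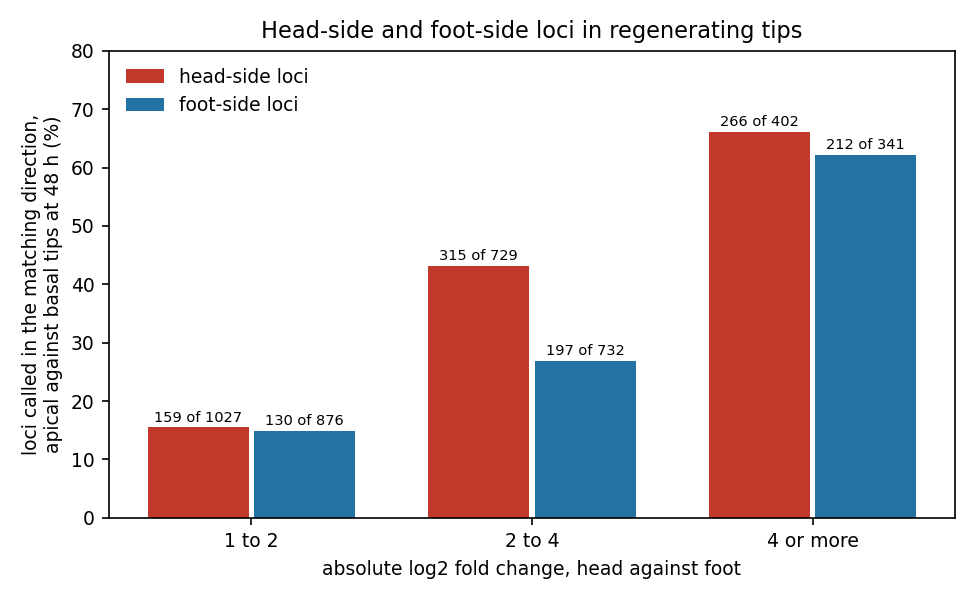
Bars give the percent of head-side (red) and foot-side (blue) loci called in the matching direction in apical against basal tips at 48 h, by the absolute log2 fold change between head and foot. Numbers above the bars are loci called of loci in the class, and the shares run from 15.5% to 66.2% and from 14.8% to 62.2%.

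The share called in the tips also varied with the place of a locus against the column, and not in the same way on both sides. Of the 626 foot-side loci placed by the foot, 363 (58.0%) were called higher in basal tips at 48 h, with a median log2 fold change, apical minus basal, of -1.56. Of the 1032 low in the head, 82 (7.95%) were called, with a median of -0.60. Of the 116 in which both ends differed, 75 (64.7%) were called. On the head side, 483 of the 1556 placed by the head (31.0%, median 0.70) and 83 of the 221 low in the foot (37.6%, median 0.88) were called higher in apical tips. The share of the own-end class was thus the larger on the foot side and the smaller on the head side. Of the 192 head-side loci in which both ends differed, 147 (76.6%) were called. The classes also differ in abundance and in fold between head and foot, and the differences between these shares were not tested.

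Of the 54272 sequences tested, 7843 (14.5%) were called, 4038 higher in the head and 3805 higher in the foot. Of the 1127 head-side loci with 2 or more tested sequences, all sequences were called higher in the head in 248 (22.0%) and some in 796 (70.6%). In foot-side loci these numbers were 242 (24.7%) and 649 (66.3%) of 979. A sequence was called in 1193 loci that were not called as a whole. In 196 of the 11000 loci with 2 or more tested sequences (1.78%), sequences were called in opposite directions, and 99 of these loci were also called as a whole.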

How the data were processed

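PolyA RNA was sequenced from directional Illumina TruSeq libraries, per the labels' protocols. The authors deposited estimated counts of reads per transcript sequence, checked to be whole numbers and used as they stand. Per the submitters' processing notes, cutadapt 1.11, Salmon 0.7.2 and DESeq2 were used, with roles not stated. The reference transcriptome is not given in the sources used here. A second deposited table holds a normalized signal made by the authors for 40479 of the 79774 sequences. It equalled the counts times 1 factor per library and served 1 alternative, as log2 of the value plus 1.

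Counts were summed per locus (the locus token of the identifier). Loci and sequences were kept by filterByExpr over the 33 groups, scaled by TMM and fitted with edgeR 4.0.16 (R 4.3.3, quasi-likelihood F-test, legacy = TRUE, trended dispersion) over all 99 libraries with 1 coefficient per group. A call needed a Benjamini-Hochberg adjusted p under 0.05, taken over all features of 1 contrast, with a difference of 2-fold or more. SE is the absolute log2 fold change over the square root of F. Depth was 26401348 to 54273942 reads per library. In simulated data for head against foot, with 20569 loci, 100 of 100 loci changed 4-fold and 100 of 100 changed 16-fold were recovered, with 8 false calls. The simulation gave every locus the same dispersion and no replicate effect, and it changed no locus of low mean count. It checks that the procedure runs as intended and does not give the error rate of the real comparison.

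Labels give the groups and the replicate letters. Deviations from the group mean correlated between same-letter libraries of head and foot at 0.28 (A), 0.34 (B) and 0.17 (C). Between unlike letters the values ran from -0.35 (head B, foot A) to 0.15 (head C, foot A). Same-letter libraries thus tended to deviate together, least clearly for C, and no label says what a letter stands for. Deviations within a group are not independent of each other, and pairing was not tested. The fit above has no term for the letter, and an alternative fit added a replicate block. Fitted for the counts of calls in each comparison, the column classes, the tips and the sequences, the block moved none of those counts by over 1.5 times.

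Named loci were the 2 called on each side with the largest difference in mean CPM and no overlap. Members, lists and tests were chosen with earlier results of these data known. Alternatives used DESeq2 1.42.0 and limma 3.58.1, and figures matplotlib 3.10.9.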

Additional observations from a re-analysis of the deposited data

How the results depend on the processing

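Under the other scaling, tests, filter, replicate block and left-out libraries tried, the 4 named loci kept their direction and call in head against foot. The median over all loci changed sign, as given next, and the call of loc02810 in foot against column ended without the 0 h replicate A libraries of the 50% level (0.96). With the replicate block 4145 loci were called in head against foot, and 752 head-side and 550 foot-side loci were called in tips. The block ended no call of a named locus in head against foot. Its effect on their calls against the column and in tips is not given. The block was not fitted for the loci read at 1 end, which need no fit, nor for the fold classes in tips. The 6 libraries alone gave 3938 loci, 2336 higher in head and 1602 in foot, and 3961 with the replicate block. That fit, on 18664 loci, moved the median log2 fold change of all loci from -0.10 to 0.01. The adjusted p of the named loci rests on the spread in all 99 libraries. With the 6 libraries alone and no block, the edgeR adjusted p was larger. It was 0.000119 for loc07840, 9.65e-05 for loc15649, 3.05e-06 for loc02810 and 0.000345 for loc11404. Leaving out 1 library gave 3921 to 4244 loci. Without a fold minimum 9086 loci were called, 3768 higher in head and 5318 in foot, and 13188 sequences. With a log2 fold change of at least 2 the counts were 2204 loci (1131 and 1073) and 4780 sequences. Those loci held 7.74% of head and 11.0% of foot reads. Over fits that left out 1 library, the head-side share of head reads ran from 17.4% to 19.8% (highest without head replicate B). The loci read at 1 end depend on the limits: with 0 reads at the silent end 26 in head and 18 in foot, with at most 10 reads 193 and 135, and with at least 100 reads at the high end 29 and 34. Loci with sequences called in opposite directions numbered 374 without a fold minimum and 84 with a log2 fold change of at least 2. Of 223 alternative values, 203 stayed within 1.5 times, within 1 SD or on the same side of the threshold, and 20 did not. The rising order in the 1032 foot-side loci low in the head moved by over 1.5 times and is not among the 223. The column classes under other fits, the further values without the replicate A libraries, and the block in tips and in sequences called both ways were added after the data were seen. Counts reflect estimated reads, so precision is limited for loci with few reads.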

Other observations

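Many of the most abundant loci were slightly lower in the head, by less than 2-fold. This was noticed in the plot of fold against abundance, so it was chosen after its values were seen. Of the 306 loci at a mean abundance of 9 or more on the log2 CPM scale, 171 (55.9%) had an adjusted p under 0.05 by edgeR and were lower in the head by less than 2-fold, and 9 were higher by less than 2-fold. Over all loci tested, 3369 (16.1%) were lower and 1610 higher by less than 2-fold at that adjusted p. At any fold, 76.1% of the 306 loci had an adjusted p under 0.05, against 43.5% of all loci. The 306 loci had a median log2 fold change, head minus foot, of -0.50, with an interquartile range from -0.62 to -0.16, against -0.10 over all loci. With the 6 libraries alone the median of the 306 was -0.40 and 136 passed. The 171 loci took 17.6%, 18.3% and 17.4% of the reads of head replicates A, B and C, 23.0%, 23.5% and 23.9% of those of the feet, 22.6% to 23.5% in intact animals and 24.8% to 28.6% in the column.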
